A study of Mus musculus with 6 samples.

Results

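The serpins are a family of protease inhibitors, and their transcripts were followed here in mouse hair follicle cells 3 days after the skin carcinogen DMBA or its vehicle. Members were taken by name: array probes whose RefSeq accession belongs to a mouse gene called Serpin, followed by a clade letter from a to i and a number. This gave 75 of 55681 probes and 60 of the 21368 genes with a symbol on the array. Of the 60 genes, 44 passed the filter used for all genes, a signal well above background on 3 or more arrays of the 6, and 16 did not. Single members were chosen by name, and the family was selected on its measured DMBA and vehicle values, results that were known, so the differences below are descriptions and carry no test of the family.

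The cells came from depilated male mice whose skin was painted either with acetone as vehicle or with DMBA, a polycyclic hydrocarbon that is made reactive inside cells and binds DNA. Epidermal cells bright for EGFP under the keratin 15 promoter, rich in integrin alpha 6 and lacking Sca1 were sorted at day 3, and per the labels they are stem cells of the hair follicle together with hair germ. Both groups, vehicle and DMBA, held 3 samples from different mice with 1 single-colour Agilent array each, and all 6 animals carried the reporter. Strain, age and DMBA dose are not given in the sources used here.

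A serpin presents an exposed loop to its target protease. When the protease cuts the loop, the serpin folds it into its own body and carries the trapped enzyme with it, so each inhibitor molecule is used once. Clade A holds mostly secreted proteins of blood plasma, clade B holds proteins that stay inside the cell, and the smaller clades hold regulators of clotting, fibrinolysis and complement and a few members that inhibit nothing, such as the collagen chaperone HSP47. In skin, clade B serpins are made by keratinocytes.

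Sort markers were well above background on all 6 arrays. On a log2 scale with the 75th percentile of the array at 0, Krt15 read 5.81 ± 0.10 (SD, n = 3) without and 6.01 ± 0.42 with DMBA, and Itga6 2.52 ± 0.14 and 2.33 ± 0.53. Of 10 follicle and basal markers, Lgr5 at -0.64 and Sox9 at -0.50 lay wholly lower after DMBA and 0 wholly higher. Over all genes tested, 5.17% lay wholly lower and 4.87% wholly higher. The 75th percentile intensity ranged from 1355 to 2274 over the arrays, and 69.3% to 83.6% of probes were well above background. Serpin probes followed the arrays in this: 60, 57 and 49 of the 75 were well above background on vehicle 1 to 3, and 55, 39 and 49 on DMBA 1 to 3. Vehicle 1 lay on a slide of its own. Pearson's r across genes was 0.937 to 0.951 within groups and 0.934 to 0.948 between them.

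Of the 44 serpin genes tested, 6 had all 3 DMBA arrays above all 3 vehicle arrays, and 0 had them below. Over all 17848 genes tested, 4.87% lay wholly above and 5.17% wholly below. The 6 were Serpina3n, Serpine2, Serpinb11, Serpinb10, Serpinb9 and Serping1, and they come from 4 different clades. With limma, no serpin passed an adjusted p of 0.05 over all genes (0 of 44, smallest adjusted p = 0.438), and no gene of the array did (0%). At an unadjusted p under 0.05 in limma, 6 serpins were higher, against 2.73% of all genes, and 1 was lower, against 2.49%. The median difference of the 44 was 0.11 on the log2 scale and that of all genes -0.01. Without DMBA 1 the median of the serpins was -0.03, and 8 serpins lay wholly above and 8 wholly below, where 8.34% and 16% of all genes did. The 6 genes stayed apart whichever array was left out, which the order of their values fixes. In these sorted bulk samples, more cells that make a transcript and more transcript per cell cannot be told apart.

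**Figure D1:**
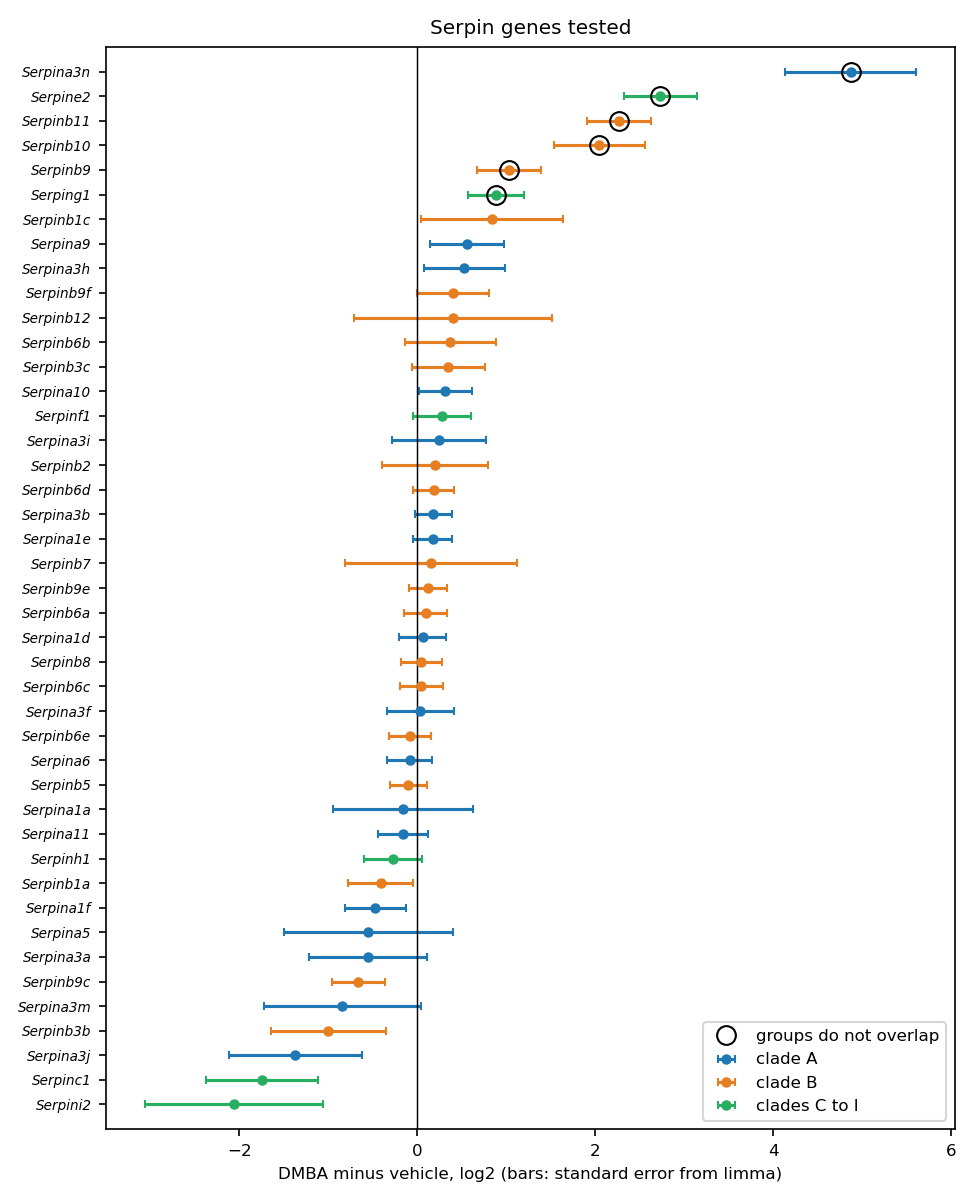
DMBA minus vehicle on the log2 scale (horizontal axis) for all but 1 of the serpin genes tested, with the standard error from limma as bars and clades by colour. The 6 circled genes, from Serping1 at 0.88 to Serpina3n at 4.87, have groups that do not overlap, and 26 lie within 0.5 of 0.

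Serpina3n had the largest difference of the family. It belongs to a mouse expansion of the gene for alpha-1-antichymotrypsin, is made in acute inflammation and inhibits granzyme B and leukocyte elastase. Its values were -7.65, -8.63 and -8.10 in vehicle and -4.92, -2.21 and -2.63 after DMBA. All 3 DMBA arrays lay above the vehicle arrays, with DMBA 1 well below the other DMBA arrays. Its probe was well above background on none of the vehicle arrays (0 of 3) and on each of the DMBA arrays, so the gene passed the filter through the group in which it was high. The fitted difference was 4.87 (SE 0.73). With each dim vehicle array set at the lowest signal that any probe had well above background there, the difference was 10.8-fold. That floor comes from all probes and is not a detection limit for this one, and it leaves out the spread between arrays. With normexp background correction, which pulls dim probes together, the fitted difference was 2.10.

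Serpine2 encodes protease nexin-1, which inhibits thrombin, urokinase and plasmin at the cell surface and is known in mouse skin from the dermal papilla of the follicle. It lay at -1.24, -0.37 and -1.24 in vehicle and at 1.15, 2.32 and 1.88 after DMBA, and was well above background on all 6. The lowest DMBA array was above the highest vehicle array by more than the whole vehicle range. The difference was 2.73 (SE 0.41), or 6.64-fold, and ranged from 2.46 to 3.05 when each array was left out in turn.

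Serpinb11 and Serpinb10 had the largest differences of clade B. Serpinb11 read -0.60, 0.35 and -0.59 in vehicle and 2.37, 1.96 and 1.62 after DMBA. The difference was 2.27 (SE 0.36), 4.81-fold, with DMBA 1 the highest array. Serpinb10, whose human counterpart bomapin is known from blood cells, read -1.22, -1.87 and -3.12 in vehicle and 0.41, -0.28 and -0.20 after DMBA. Its difference was 2.05 (SE 0.52), 4.13-fold, and the vehicle arrays spread more widely than the DMBA arrays. Both genes were well above background on all 6 arrays.

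Serpinb9 and Serping1 had smaller differences. Serpinb9, which shields cells from granzyme B, the killing protease of cytotoxic lymphocytes, read -4.53, -5.04 and -4.50 in vehicle and -4.11, -3.002 and -3.86 after DMBA. The groups were separated by less than 0.5 at their nearest arrays, and the difference of 1.03 (SE 0.36) was 0.55 in a fit that also held each array's percent of probes above background. Serping1 encodes the C1 inhibitor, which restrains complement and the contact system. Its brighter probe read -1.81, -1.51 and -2.24 in vehicle and -0.57, -1.34 and -0.99 after DMBA, a difference of 0.88 (SE 0.31). The other probe gave -2.66, -3.47 and -4.27 against -0.16, -2.86 and -0.90, a difference of 2.16, and there the groups overlapped because DMBA 2 lay below vehicle 1.

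**Figure D2:**
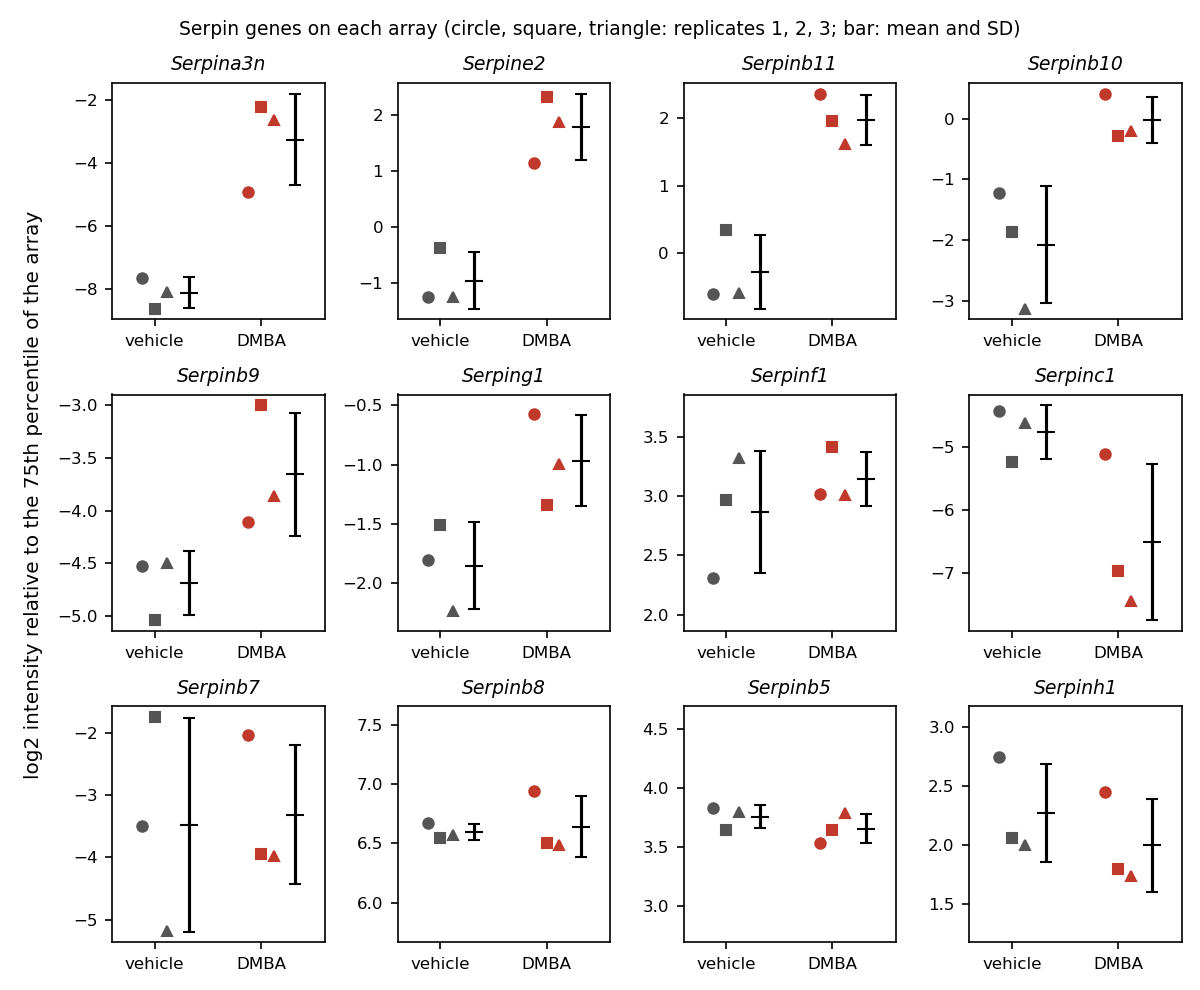
Level on each array (vertical axes, log2 intensity relative to the 75th percentile of the array) of 12 serpin genes, vehicle in grey and DMBA in red, with mean and SD beside each group. Groups are apart for Serpina3n, Serpine2, Serpinb11, Serpinb10, Serpinb9 and Serping1 and overlap for the other 6, among which Serpinb7 has the widest spread in vehicle.

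Promoter letters are shown for the 4 serpins with the largest higher values, as RefSeq gives them on GRCm38.p6, from 250 bases before the transcript start to 50 after it. A window was found for 49 of the 60 serpin genes. The windows were searched for 7 motifs: the p53 half-site, the XRE core GCGTG that the aryl hydrocarbon receptor binds, the ARE core TGACNNNGC of NRF2, the STAT site TTCNNNGAA, the AP-1 site TGANTCA, the NF-kappaB site and, on the gene's strand only, the TATA box TATAAA. Apart from the TATA box both strands were read, and overlaps between motifs were allowed. Capitals mark matches, in order the p53 half-site in Serpina3n (chr12:104406458-104406757 on the plus strand), none in Serpine2 (chr1:79858616-79858915 on the minus strand), 1 AP-1 site in Serpinb10 (chr1:107528753-107529052 on the plus strand) and 2 in Serpinb11 (chr1:107362064-107362363 on the plus strand).
Serpina3n: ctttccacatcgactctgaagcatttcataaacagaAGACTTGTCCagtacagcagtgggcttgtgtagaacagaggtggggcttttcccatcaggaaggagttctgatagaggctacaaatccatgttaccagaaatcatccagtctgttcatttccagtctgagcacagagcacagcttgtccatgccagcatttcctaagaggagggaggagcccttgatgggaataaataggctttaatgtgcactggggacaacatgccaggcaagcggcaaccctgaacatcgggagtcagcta
Serpine2: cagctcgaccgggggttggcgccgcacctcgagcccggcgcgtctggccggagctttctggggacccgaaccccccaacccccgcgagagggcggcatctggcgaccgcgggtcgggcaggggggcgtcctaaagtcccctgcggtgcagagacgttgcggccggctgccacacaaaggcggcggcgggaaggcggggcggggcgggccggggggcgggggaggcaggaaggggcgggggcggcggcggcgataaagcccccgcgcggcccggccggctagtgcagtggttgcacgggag
Serpinb10: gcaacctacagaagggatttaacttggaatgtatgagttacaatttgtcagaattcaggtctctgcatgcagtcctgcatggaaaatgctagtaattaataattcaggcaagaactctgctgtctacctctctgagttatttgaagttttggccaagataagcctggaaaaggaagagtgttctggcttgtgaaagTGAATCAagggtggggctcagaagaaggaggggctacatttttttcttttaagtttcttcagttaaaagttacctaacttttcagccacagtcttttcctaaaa
Serpinb11: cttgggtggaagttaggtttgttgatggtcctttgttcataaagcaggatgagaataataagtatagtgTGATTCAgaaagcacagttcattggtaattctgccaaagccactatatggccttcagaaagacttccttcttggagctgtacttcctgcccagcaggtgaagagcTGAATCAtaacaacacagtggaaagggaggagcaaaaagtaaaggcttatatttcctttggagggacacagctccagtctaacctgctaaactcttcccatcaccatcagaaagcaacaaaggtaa

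The Serpine2 window was 77.7% G and C, against a median of 52.7% over all windows, while those of Serpina3n, Serpinb10 and Serpinb11 held 48.7%, 39.3% and 42.7%. A p53 half-site was found in 1 of the 36 tested serpins with a window (2.78%), the Serpina3n window shown above, and in 8.37% of windows of all genes. The XRE core was in 4 of 36 (11.1%) against 32.5% of all genes, and the ARE core in 0 of 36 against 12.5%. The STAT site was in 7 of 36 (19.4%) against 8.47% of all genes, the TATA box in 6 (16.7%) against 8.88% and the NF-kappaB site in 2 (5.56%) against 8.18%, and none of these was in a window of the 6 genes with groups apart, of which 5 had a window. The AP-1 letters were in 9 of 36 (25%) against 7.93% of all genes. Of these 9 genes, 7 belong to the clade B cluster of chromosome 1, where 9 tested genes had a window. Besides Serpinb10 and Serpinb11 they were Serpinb5, Serpinb12, Serpinb7, Serpinb2 and Serpinb8. Their differences, on the brightest probe, lay between -0.10 and 0.40 with groups that overlap. Genes of a cluster share descent, so these windows are not independent of each other, and the shared letters were found in genes with and without a difference.

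Most serpin genes lie in 3 clusters, and Serpine2 and Serping1 lie outside them. Tested genes next to a gene with groups apart had groups that overlap. Some of these neighbours had wide standard errors, and whether neighbours share a change was not tested. The chromosome 1 cluster holds 12 clade B genes, of which 9 were tested, and Serpinb11 and Serpinb10 are its eighth and eleventh genes in chromosomal order. The genes between them, Serpinb7 and Serpinb2, had differences of 0.16 (SE 0.97) and 0.20 (SE 0.60). Serpinb8, the next gene after Serpinb10, had 0.05 (SE 0.23). On chromosome 13, with 11 of 17 genes tested, Serpinb9 was the only gene with groups apart. Serpinb6b, the gene before it, had 0.37 (SE 0.51), and Serpinb9b, the gene after it, was not tested. On chromosome 12, with 17 of 28 clade A genes tested, this held for Serpina3n, the last gene in order, while the tested gene next to it, Serpina3m, had -0.84 (SE 0.88).

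**Figure D3:**
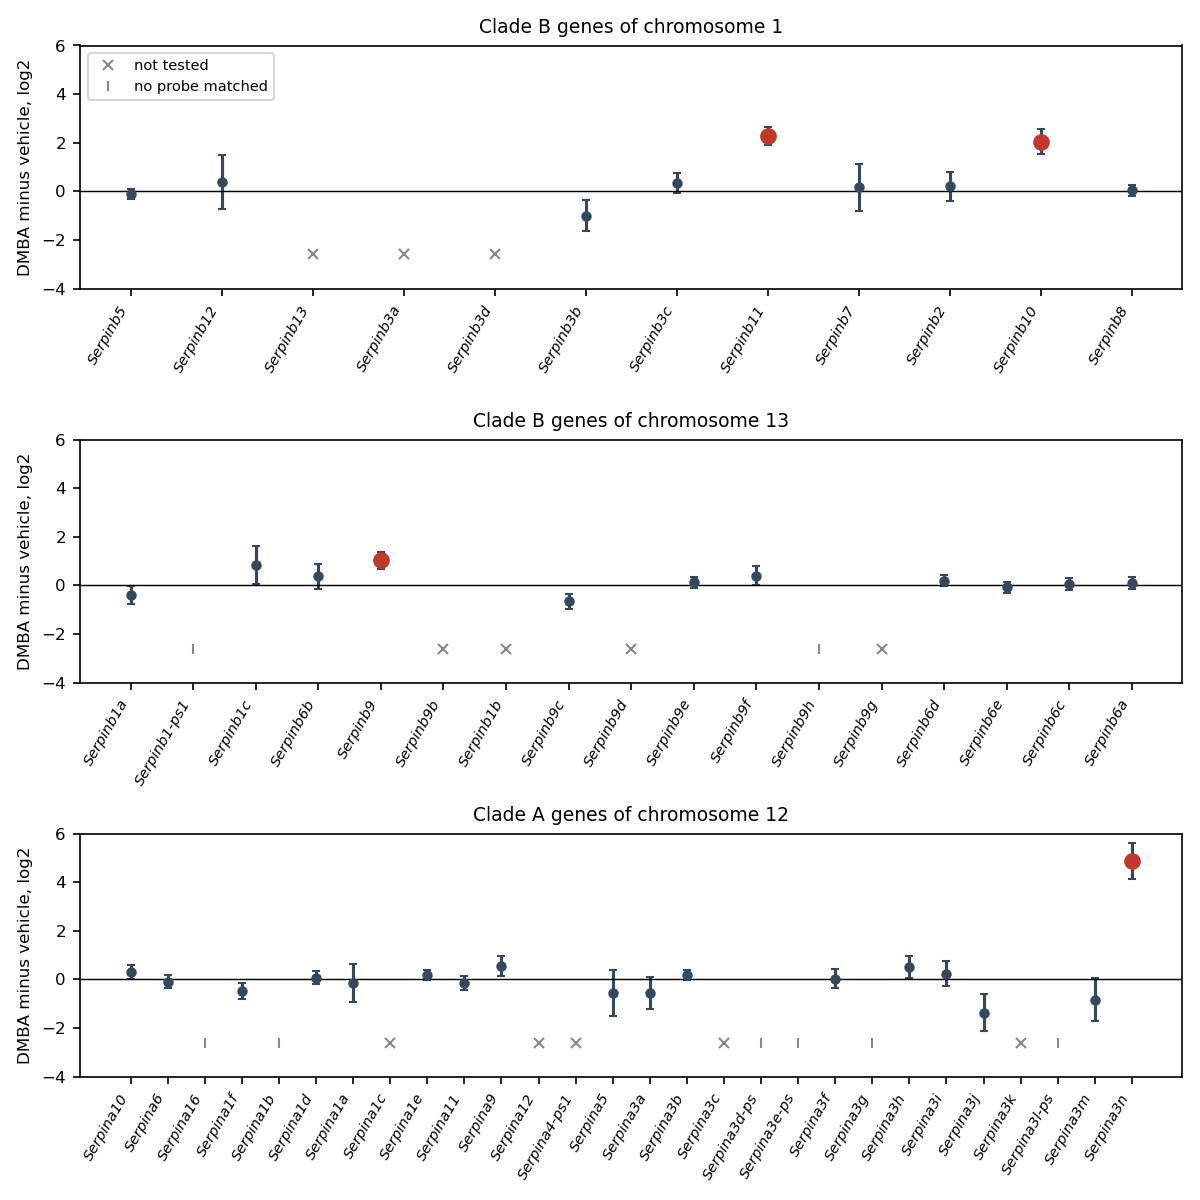
DMBA minus vehicle on the log2 scale, with the standard error from limma, for serpin genes in their order along 3 chromosomes (order only, not to scale). Red points mark genes whose groups do not overlap, 2 on chromosome 1, 1 on chromosome 13 and 1 on chromosome 12, and crosses and ticks below mark genes that were not tested or had no matching probe.

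For 3 intracellular clade B serpins with signal on every array, values with and without DMBA lay close together. Serpinb5, which encodes maspin, a serpin of epithelial cells that inhibits no protease, read 3.83, 3.65 and 3.80 in vehicle and 3.54, 3.65 and 3.79 after DMBA, a difference of -0.10 (SE 0.21). Serpinb8, whose human counterpart is needed for the cohesion of the outer epidermis, read 6.67, 6.54 and 6.57 against 6.94, 6.51 and 6.48. Serpinb6a, an inhibitor of trypsin-like proteases and cathepsin G, read 1.88, 2.42 and 2.23 against 2.38, 2.32 and 2.12. In all 3 the groups overlapped and the difference was at most 0.10 in size. The probe of its close copy Serpinb6c read 1.66, 2.14 and 1.87 against 2.13, 1.91 and 1.77, in nearly the same pattern, and the probe letters needed to tell such copies apart were not used here. All 5 Serpinb6 genes were tested, with differences from -0.08 to 0.37.

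The serpins of the outer, differentiating epidermis varied between mice more than between groups. Serpinb7 read -3.50, -1.73 and -5.18 in vehicle and -2.02, -3.94 and -3.98 after DMBA. Serpinb12 read -3.73, -2.67 and -4.82 against -0.91, -4.27 and -4.84, so that DMBA 1 alone stood high. Its dimmer probe read -4.32, -4.37 and -6.25 against -3.16, -6.88 and -7.35, a difference of -0.82 where the brighter probe gave 0.40. Serpinb2, plasminogen activator inhibitor 2, read -3.75, -2.37 and -4.33 against -3.93, -3.39 and -2.53, and its difference of 0.20 turned to -0.22 without vehicle 3. On the brightest probe of each of the 3 genes, vehicle 2 was the highest vehicle array and vehicle 3 the lowest. The summed level of 9 tested markers of suprabasal epidermis was 81.6, 165 and 102 on vehicle 1 to 3 and 162, 118 and 124 on DMBA 1 to 3, with the 75th percentile of the array as 1. Within the groups it was highest on vehicle 2 and DMBA 1 and lowest on vehicle 1 and DMBA 2. The 3 serpins differed from this in part, being lowest in vehicle on vehicle 3, and Serpinb2 was lowest of the DMBA arrays on DMBA 1. The part of the marker sum in these serpin values was not tested. Serpinb3b, of the squamous cell carcinoma antigen genes, read -4.75, -4.17 and -5.89 against -4.77, -6.41 and -6.62, with vehicle 2 again highest, and cleared the background mark on 2 vehicle arrays and 1 DMBA array. Serpinb3a and Serpinb13 passed on 2 arrays each, 1 array short of the filter.

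Other clade B members went in both directions without groups apart. Serpinb1a, an inhibitor of neutrophil elastase and cathepsin G, read -1.32, -1.51 and -0.49 in vehicle and -1.73, -1.07 and -1.74 after DMBA. Serpinb1c read -5.72, -3.30 and -2.66 against -3.23, -3.39 and -2.55, and its difference of 0.84 was -0.07 without vehicle 1. Serpinb9c read -3.86, -3.87 and -4.40 against -4.27, -4.90 and -4.95, a difference of -0.66 (SE 0.30) in the direction opposite to Serpinb9. Of the 7 Serpinb9 genes on the array, 4 were tested and 3 were on no array well above background.

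In clade A, 17 of 23 genes were tested, with a median difference of 0.04 and 9 above and 8 below 0. Without Serpina3n the Serpina3 group had no gene with groups apart, and its values ran from -1.37 to 0.53. Serpina3j had the lowest, with -4.13, -1.31 and -3.17 in vehicle and -3.51, -4.71 and -4.51 after DMBA, and its difference of -1.37 was -0.59 without vehicle 2. Serpina3m read -5.29, -5.81 and -3.08 against -4.61, -6.89 and -5.20, and its difference was -0.02 without vehicle 3, -0.18 both without DMBA 2 and with normexp. The 4 tested Serpina1 genes, copies of alpha-1-antitrypsin, the main elastase inhibitor of plasma, ran from -0.47 to 0.17. Serpina6, the plasma carrier of corticosteroids, had -0.09 (SE 0.26). Serpina1d, Serpina6 and Serpinf1 each had probes over 16-fold apart in signal (19.3, 20.7 and 156-fold), and their values are uncertain for that reason.

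The 2 lowest differences of the family belonged to serpins of the smaller clades whose probes lay near background. Serpinc1, antithrombin, read -4.42, -5.24 and -4.62 against -5.11, -6.97 and -7.45, with a difference of -1.75 (SE 0.63). The probe cleared the background mark on 3 vehicle arrays and 1 DMBA array, DMBA 1 lay inside the vehicle range, and with normexp background correction the difference was -0.45. Serpini2 had a difference of -2.06 (SE 1.00), from -3.67, -6.12 and -3.72 against -4.72, -7.27 and -7.70, and was likewise above background on 3 vehicle arrays and 1 DMBA array, with groups that overlap. With normexp its difference was -0.78 and that of Serpina3j -0.80, and without vehicle 1 the value of Serpini2 was -1.64 and that of Serpina3j lower still. Serpind1, heparin cofactor II, and Serpini1, neuroserpin of the nervous system, were each well above background on 1 array, and Serpinf2, the plasmin inhibitor, on 0.

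For 2 further members that inhibit no protease, the groups overlapped. Serpinh1, which encodes HSP47, a chaperone for collagen, read 2.75, 2.06 and 2.00 in vehicle and 2.45, 1.80 and 1.74 after DMBA, a difference of -0.27 (SE 0.33). Serpinf1, pigment epithelium-derived factor, which acts on vessels and nerve cells, read 2.31, 2.97 and 3.33 against 3.02, 3.41 and 3.01, a difference of 0.28 (SE 0.33) that was -0.54 on its dimmer probe.

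Several of these transcripts are also made by cells other than keratinocytes, and marker levels were set beside them. Over all genes tested, 4.87% had groups apart on the higher side and 5.17% on the lower side. The summed level of fibroblast markers, 7 of 9 tested, ran from 16.5 to 19.4 on the vehicle arrays and from 22.0 to 23.3 on the DMBA arrays, higher after DMBA as Serpine2 and Serping1 were. Fbln1 alone made up 67.8% to 81.5% of that sum, and without it the groups overlapped, at 3.55 to 4.83 and 4.77 to 7.49. Dcn, the proteoglycan decorin, had a difference of 1.51 (SE 0.25), Col1a1 1.29 (SE 0.57) and Fbln1 0.24 (SE 0.22), and each had groups apart. The other 4 tested had groups that overlap, with Col1a2 at 0.51, Vim at 0.53, Thy1 at 0.10 and Col3a1 at -0.52. Pdgfra was on no array well above background and Lum was not tested. The part of these cells in the serpin values was not tested. Leukocyte markers, with 11 of 13 tested, summed to 95.5 to 119 on the vehicle arrays and 91.5 to 146 on the DMBA arrays, with 0 wholly higher and 1 wholly lower. Itgam made up 89.9% to 94.7% of that sum, and the other 10 markers summed to 6.37 to 12 and 6.73 to 7.72. Liver markers, of the organ that makes most clade A serpins, summed to 0.93 to 2.25 and 0.77 to 1.43, and Alb did not pass the filter. Trf made up 68.2% to 84.5% of the liver sum, and the rest summed to 0.258 to 0.349 and 0.245 to 0.4. Melanocyte markers summed to 2.95 to 4.46 and 4.14 to 6.75, and blood markers to 0.41 to 4.24 and 0.77 to 5.23. Mlana made up 5.52% to 62.3% of the melanocyte sum and Hba-a1 58.1% to 89.4% of the blood sum. Of 8 melanocyte markers tested, 3 were higher and 5 lower after DMBA, and 0 had groups apart. Tyrp1 had 3.35 (SE 1.32) and Mlana 2.72 (SE 0.95), both larger than any fibroblast marker, and Kit had -1.24 (SE 0.73). Tyrp1 was well above background on 1 vehicle array.

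**Figure D4:**
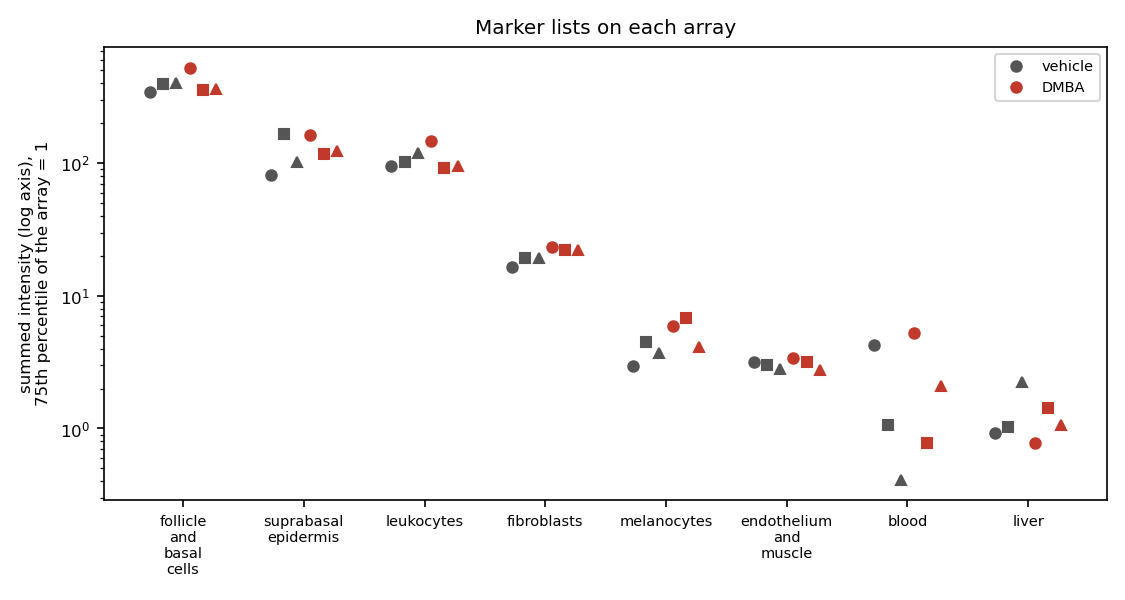
Summed intensity of the tested genes of 8 marker lists on each array (log axis, 75th percentile of the array as 1), vehicle in grey and DMBA in red, with circle, square and triangle for replicates 1, 2 and 3. The fibroblast list is the one whose groups do not overlap, at 16.5 to 19.4 against 22.0 to 23.3, and they overlap without Fbln1.

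The proteases that serpins control, and related genes, were taken from 8 lists. None of their members passed limma's adjusted p of 0.05 over all genes. For the counts of groups apart below, the shares over all genes tested were 4.87% on the higher side and 5.17% on the lower side. In the list of plasminogen activation and thrombin, with targets of Serpine2 among them, 16 of 18 tested genes were lower and 2 higher after DMBA, with a median of -0.24 on the log2 scale against -0.01 for all genes. Of these, 2 had groups apart, both lower: Lrp1, the receptor that clears serpin and protease complexes, at -0.71 (SE 0.24), and Procr, the protein C receptor, at -1.21 (SE 0.53). Plaur, the urokinase receptor, had -1.44 (SE 0.78), and F2r, the thrombin receptor, -0.82 (SE 0.71), both with groups that overlap. The median ran from -0.49 without DMBA 1 to -0.07 without DMBA 3, was -0.08 with normexp and was 0.093 in a fit with each array's percent of probes above background, which moved the median of all genes to 0.10.

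Other protease inhibitors had a median of 0.16, with 18 of 26 higher, and a median of -0.014 without DMBA 1. The 3 with groups apart were all stefins, small inhibitors of cysteine proteases: Stfa1 at 2.05 (SE 0.75), Stfa3 at 1.12 (SE 0.47) and Stfa2 at 1.08 (SE 0.43). They are close copies and may share signal. Among epidermal serine proteases (median 0.10, 13 of 20 higher), Htra1, a secreted protease of the matrix, had 1.28 (SE 0.35) and Klk5, a kallikrein of the shedding epidermis, -0.96 (SE 0.35), each with groups apart. Lysosomal proteases had a median of -0.14, and Ctsd, cathepsin D, had 0.45 (SE 0.21) with groups apart. Granule proteases of leukocytes, some of them targets of Serpina3n, Serpinb9 or Serpinb1a, had a median of 0.12 over 11 genes, 0 had groups apart, and Gzmb, which encodes granzyme B, was on no array well above background.

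In the complement and contact list, the systems that Serping1 restrains, 11 of 14 genes were lower (median -0.22, against -0.01 for all genes). Cfb, complement factor B, at 2.37 (SE 0.85) and C1s1, the C1s protease that Serping1 blocks, at 0.99 (SE 0.31) had groups apart on the higher side. F11, at -1.22 (SE 0.42), and C1qa, at -0.34 (SE 0.22), had them on the lower side. F11 was well above background on 3 vehicle and 0 DMBA arrays, so it passed the filter through the group in which it was high. The acute phase and STAT3 list, the setting in which Serpina3n is best known, had 12 of 19 genes higher and a median of 0.22, but 0 genes with groups apart. Socs3, a feedback inhibitor of STAT3, had 1.07 (SE 0.61) and Lif 1.13 (SE 0.81). Collagens and genes of collagen folding, the process Serpinh1 serves, had a median of -0.01. Plod2, a collagen lysyl hydroxylase, had 2.38 (SE 0.71) and P4ha1, a prolyl hydroxylase, -2.37 (SE 0.48), each with groups apart. P4ha1, like F11, was well above background on 3 vehicle and 0 DMBA arrays, so the size of its difference is uncertain.

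**Figure D5:**
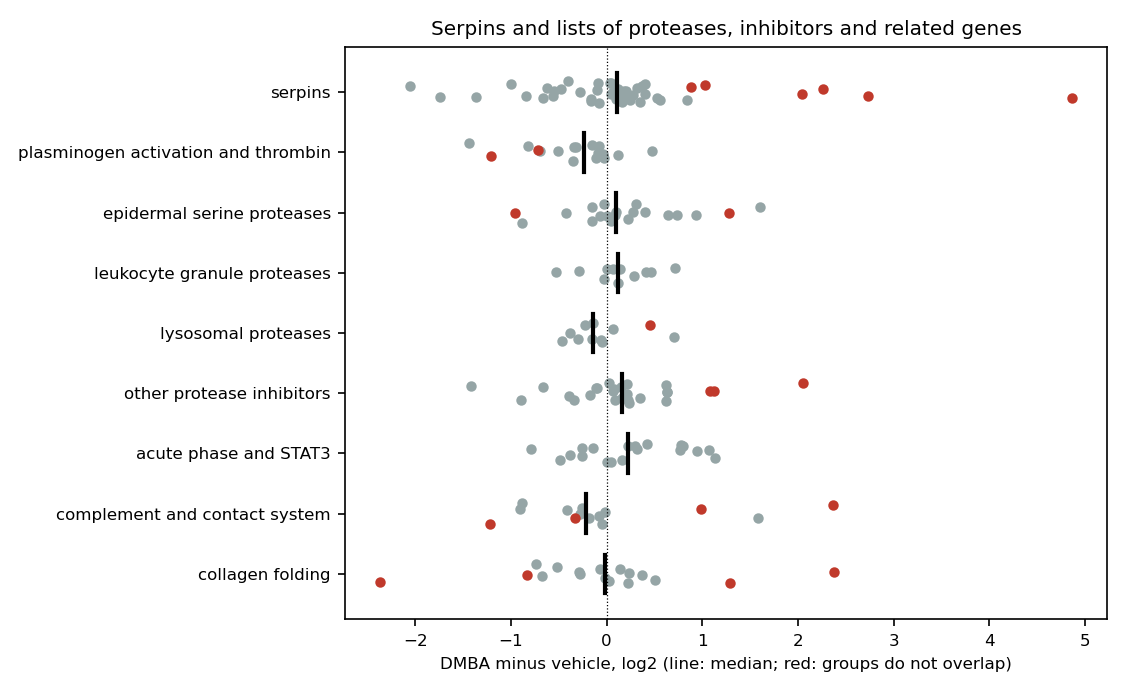
DMBA minus vehicle on the log2 scale for the tested serpins and the tested genes of 8 lists of proteases, inhibitors and related genes, 1 point per gene, with the median as a line. Red points have groups that do not overlap, and the medians run from -0.24 for plasminogen activation and thrombin to 0.22 for the acute phase list.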

How the data were processed

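Per the labels, total RNA of the sorted cells was labelled with Cy3. Agilent Feature Extraction 10.7.1.1, named in the submitters' processing notes, turned scans into spot values, and per the file headers the probes were annotated on mm9. The deposited scanner files hold spot intensity, background-subtracted and detrended within the array. The authors' deposited matrix holds linear intensity, each column having a 75th percentile of 1.004 to 1.007 and a median of 0.162, 0.154, 0.154, 0.172, 0.159 and 0.16 (vehicle 1 to 3, DMBA 1 to 3), and was an alternative only; its scale, centring and direction were found from the scanner values.

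Values were log2 intensity minus the log2 75th percentile over spots that are not controls. Outlier spots were left out and spots of a probe averaged. Probes well above background on at least 3 of 6 arrays were kept. Genes were named through RefSeq accessions (GRCm38.p6 annotation, names and gene order only) and stood for by the kept probe with the highest mean. For 44 of 60 serpins and 17848 genes in all, DMBA was compared with vehicle in limma 3.58.1 (R 4.3.3), with Benjamini-Hochberg adjustment, no covariates, on 3 against 3 arrays, which limits the precision. The fit was tested on simulated data. At an adjusted p under 0.05 it recovered 44 of 100 genes changed by 2 on the log2 scale, and 81 of 100 changed by 4. Many true differences of these sizes would thus be missed.

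Members and lists were chosen with earlier results of these data known. Serpins named with values on each array were those with groups apart, then those with the largest differences up to 14, then a fixed list of well-known members. Up to 4 genes per list were named by the same order. Further genes (Serpinb7, Serpinb12, Serpinb6c, Serpina6, Plau and Plg among them) were added for their cluster or role after their values were seen. The files have no mean spot signal, so the normexp alternative used the median signal. Probe sequences and proteins were not used here, and 1 tested member is counted but not reported here by name. Deviations of vehicle and DMBA arrays with the same replicate number correlated with r from -0.02 to 0.06, and those with different numbers from -0.06 to 0.04. With 3 arrays per group such values cannot exclude a pairing, and the numbers were not used as pairs in the main fit.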

Additional observations from a re-analysis of the deposited data

How the results depend on the processing

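No serpin passed the threshold over all genes in limma under any of the 16 alternatives run (lowest adjusted p = 0.366). The 6 genes named with groups apart kept this on every set of values in which they were tested, except Serping1 on its dimmer probe. Most of this was fixed beforehand, since leaving out an array cannot end a separation. All but Serping1 had 1 probe, so the settings for probes and filter reused the same values. For these genes only normexp, quantile normalization and the deposited matrix gave other values. Serpina3n was not tested where a probe had to be above background on all 6 arrays. Without the filter on dim probes, 11 of 60 serpins lay wholly above, where 8.43% of all genes did. Of the genes this added, Serpina4-ps1, Serpinb1b, Serpinb9d and Serpinb9g were well above background on 0 arrays and Serpinb3d on 1. The lowest value of any probe was -8.62, -8.73 and -8.23 on vehicle 1 to 3 and -8.01, -7.32 and -7.79 on DMBA 1 to 3. Probes without signal can thus lie wholly above, and the part of this in the count was not tested. With quantile normalization 2 serpins lay wholly below, Serpinb9c and Serpinc1, where 6.12% of all genes did. When each array was left out, 7 to 10 serpins lay wholly above and 1 to 8 wholly below, against 8.34% to 9.85% and 8.84% to 16% of all genes, the number of genes called ran from 0 to 1, and the median of the serpins ran from -0.033 to 0.16, that of clade A from -0.15 to 0.11 and that of clade B from -0.033 to 0.25. The list medians ran from -0.49 to -0.07 for plasminogen activation and thrombin, from -0.014 to 0.31 for other protease inhibitors, from 0.10 to 0.26 for epidermal serine proteases, from 0.03 to 0.16 for granule proteases, from -0.08 to 0.05 for collagen folding, from -0.17 to -0.015 for lysosomal proteases, from 0.0082 to 0.30 for the acute phase list and from -0.21 to 0.015 for complement. With the dimmest kept probe the clade A median was -0.14. A slide term gave the same medians as leaving out vehicle 1, which lay on a slide of its own, and is no separate check. The lysosomal median was then -0.015 and the complement median 0.015. With normexp the complement median was -0.0082. In a fit that also held each array's percent of probes above background, the median was 0.22 for clade A, 0.093 for plasminogen activation and thrombin, 0.40 for epidermal serine proteases, 0.058 for lysosomal proteases, 0.40 for other protease inhibitors, -0.054 for complement and 0.19 for collagen folding. The cause was not tested. A replicate block cannot move the difference of a gene with a value on every array, since each number has 1 vehicle and 1 DMBA array. The serpin median of 0.11 and the list medians were therefore bound to stay. Only standard errors and p-values could change, and the number of serpins called stayed at 0. Signal near background limits Serpina3n, Serpinc1 and Serpini2, each above background on 3 or 4 arrays. The same holds for Serpina5 and Serpinb3b on 3 arrays and Serpina1a and Serpina3a on 4, and 10 tested serpins in all were above it on 3 to 5.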
